A study of Mus musculus with 6 samples.

Results

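The enzymes and anchoring proteins of cyclic AMP (cAMP) signaling were examined in the prefrontal cortex (PFC) of mice after repeated social defeat (RSD). Members were chosen by symbol. They were the adenylyl cyclases (Adcy), the genes with a Pde symbol, the catalytic (Prkac) and regulatory (Prkar) subunits of protein kinase A, the A-kinase anchoring proteins (Akap), and Creb1, Crem and Crtc1 to Crtc3. The rule found 49 of the 12559 genes of the mRNA table, namely 9 cyclases, 17 phosphodiesterase genes, 2 catalytic and 4 regulatory subunits, 12 anchors, and 5 genes of the CREB and CRTC group. Together they had 148 of the 32870 mRNA transcripts, and 19 of their loci also held 48 of the 25974 transcripts listed as lncRNA.

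PFC RNA had been sequenced for 3 mice after RSD and for 3 control mice, all male C57BL/6 animals of 6 to 8 weeks. For RSD, an aggressive CD-1 male was put into the cage of the resident mice for 2 h a night over 6 nights, and the RSD mice sequenced were ones with anxiety-like behavior. Control mice stayed undisturbed in another cage and room, and animals were kept 3 to a cage, so that the effects of cage, room and RSD cannot be told apart. Every mouse was killed right after an elevated plus maze test, and the PFC was taken as the front of the brain ahead of a coronal cut at the rear edge of the olfactory tubercle.

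Adenylyl cyclases make cAMP when receptors activate the stimulatory G protein, and phosphodiesterases break it down. The cAMP binds the regulatory subunits of protein kinase A (PKA) and frees the catalytic subunits, while anchors hold the holoenzyme at synapses, mitochondria, centrosomes or the nucleus. Freed catalytic subunits phosphorylate CREB, which turns on genes together with CRTC coactivators, and in the PFC this pathway is known for its part in working memory and in the response to stress.

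Values were FPKM (fragments per kilobase of transcript, scaled to the size of the library), summed over the mRNA transcripts of a gene, so levels of different genes are given per length. The mRNA table summed to 149323 to 158966 FPKM in RSD mice and to 135141 to 168805 FPKM in control mice. The depth of the libraries is unknown. A ratio to control replicate 1, only estimated from the lowest FPKM values above 0, was 0.901 to 0.953 in RSD mice and 0.865 to 1 in control mice. In bulk tissue, fewer cells of a type and less RNA per cell cannot be told apart. Summed markers of excitatory neurons (9 of 9 in the table) lay between 471 and 647 FPKM in RSD mice and between 115 and 548 FPKM in control mice. Most of that gap was in Slc17a7, the vesicular glutamate transporter, which had 327, 331 and 311 FPKM in RSD mice, against 311, 0 and 0.0055 FPKM in control mice. Without it, a sum added after its values were seen, the other 8 markers lay between 159 and 320 FPKM in RSD mice and between 115 and 237 FPKM in control mice, with overlap. Oligodendrocyte markers (8 of 8, none at 0) summed to 254 to 301 FPKM in RSD mice and to 141 to 239 FPKM in control mice, without overlap. Endothelial markers (6 of 6, none at 0) summed to 26.4 to 31.0 FPKM in RSD mice and to 29.7 to 51.2 FPKM in control mice. Of 10 striatal markers 6 were in the table, without Drd2 and Adora2a, and they summed to 21.9 to 22.8 FPKM in RSD mice and to 16.5 to 31.2 FPKM in control mice. That sum joins genes that went opposite ways, with 3 positive and 3 negative log2 fold changes from -3.18 to 1.17. The part of these markers in the results was not tested.

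No member passed an adjusted p under 0.05 at the gene level. Of the 49 genes, 47 had at least 0.5 FPKM in at least 3 mice and were tested with limma on log2(FPKM + 0.1). Adcy4 and Akap12 were not. Among all 12277 genes tested, 0.0733% passed that threshold. The study threshold asks for an unadjusted p of at most 0.05 and a log2 fold change of 1 or more in either direction. The study applied it to transcripts with edgeR, while here it was applied to limma results, first those of gene sums. Calls by it here are therefore not the calls of the study. With this threshold 0 of the 47 members were called, against 2.42% of all genes. At an unadjusted p of at most 0.05 alone there were 4 members, beside 8.94% of all genes. In RSD mice 2 of them had higher and 2 lower values, while 6.21% and 2.74% of all genes did so in those directions. The groups did not overlap for 4 members with higher and 5 with lower values in RSD mice, beside 9.39% and 6.66% of all genes. The median log2 fold change of the members was -0.03, that of all genes 0.03, and the median size of the change was 0.216 and 0.222.

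The precision differed widely among members. The 95% confidence interval lay within 0.5 of 0 on the log2 scale for 14 members and within 1 of 0 for 32. A difference of the size the study calls was therefore outside the interval for those 32, and could not be seen or excluded for the others. Between the highest and the lowest mouse, 20 members differed over 2-fold and 8 over 4-fold, and 4 members were listed at 0 in at least 1 mouse. In these tables a 0 may be a failed estimate.

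**Figure D1:**
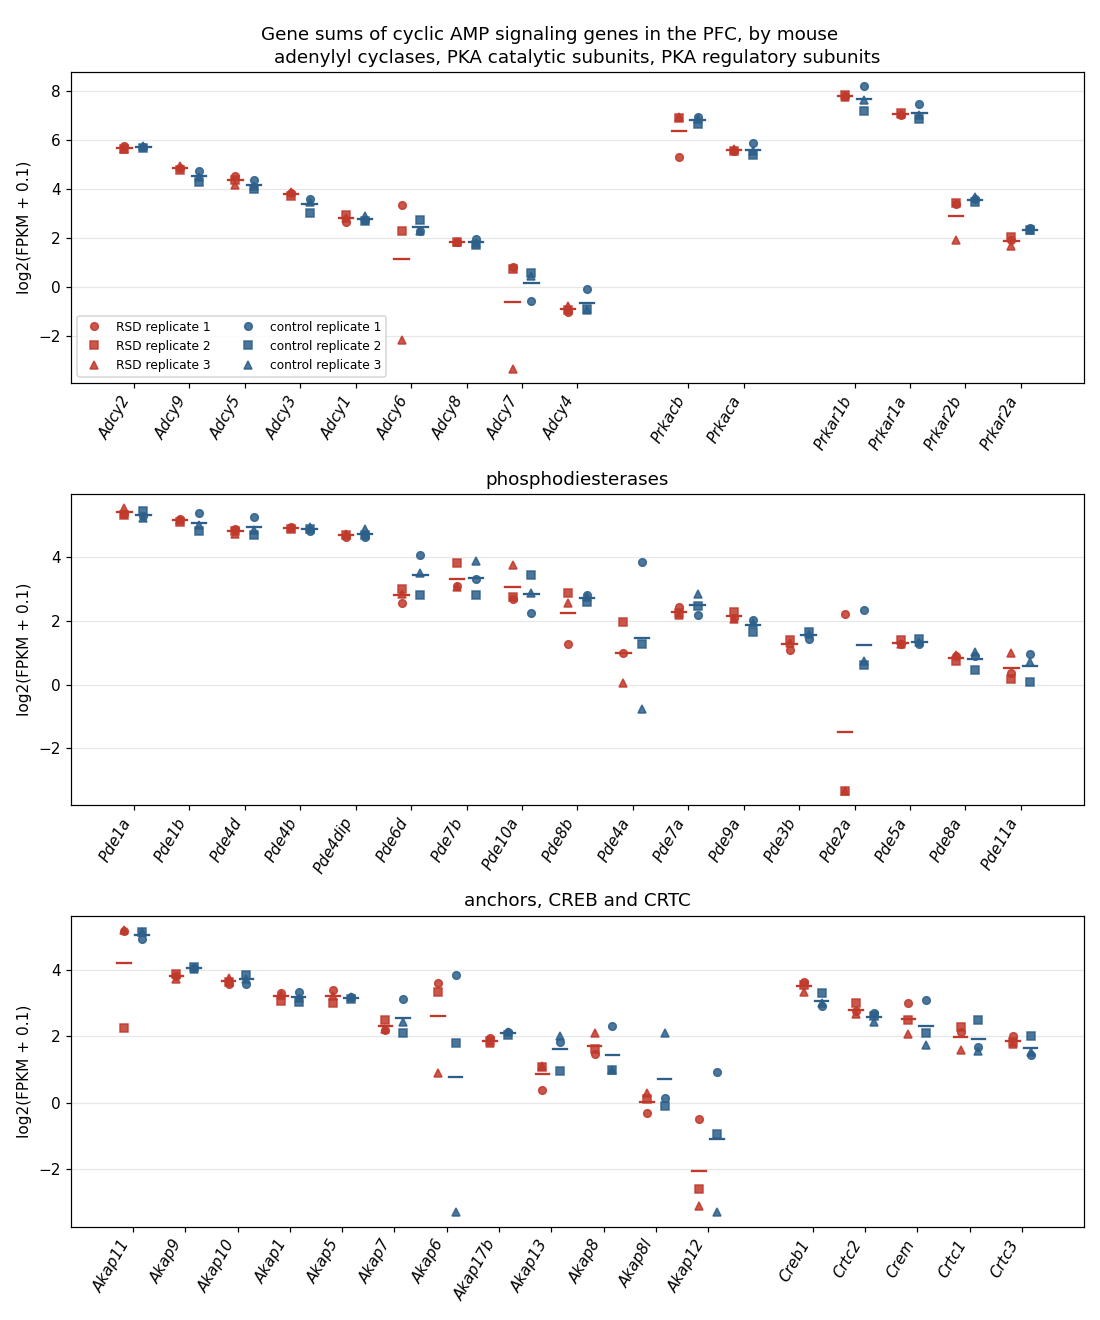
Level of each of the 49 genes in each mouse, as log2(FPKM + 0.1) of the gene sum, with RSD mice left of control mice and a short line at the mean of each group. The 6 mice lie close together for genes such as Adcy2, Pde4b and Akap9, while Adcy6, Adcy7, Prkacb, Akap11, Akap6 and Pde2a have 1 or 2 mice far below the rest.

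Among the cyclases, Adcy2 and Adcy9 held most of the message and no cyclase passed the adjusted threshold. Summed cyclase FPKM was 142, 129 and 122 in RSD mice, against 128, 113 and 122 in control mice, and the groups overlapped. Adcy2, a cyclase that the beta-gamma subunits of G proteins stimulate, made up 41.1% of that sum on average over the mice. It had 53.6, 49.9 and 49.1 FPKM in RSD mice, against 51.8, 51.3 and 53.7 FPKM in control mice. These 6 values were among the most even of all members, and the 95% interval of the log2 fold change of -0.04 ran only from -0.26 to 0.18.

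Adcy3, known from the cilia of olfactory neurons and of other neurons, had the smallest p of the cyclases. It had 14.0, 13.2 and 14.5 FPKM in RSD mice, against 12.1, 8.06 and 11.0 FPKM in control mice. All 3 RSD mice lay above all 3 control mice, with a log2 fold change of 0.43 (SE 0.173), an unadjusted p of 0.0472 and an adjusted p of 0.556 (limma). Leaving out each mouse in turn gave 0.26 to 0.55. The transcript ENSMUST00000020984 was 73.2%, 79.3% and 76.2% of Adcy3 in RSD mice, against 71.2%, 0% and 72.2% in control mice. Control replicate 2, where it was listed at 0, also had the lowest sum of Adcy3. Adcy9, a widely expressed cyclase that forskolin hardly stimulates, made up 20.5% of the family. Its gene sum was 28.7, 27.4 and 30.1 FPKM in RSD mice, against 26.7, 19.6 and 22.4 FPKM in control mice, again without overlap. The log2 fold change was 0.34 (SE 0.141, adjusted p = 0.557, limma). Adcy5, the main cyclase of striatal neurons, had 23.3, 20.8 and 17.7 FPKM in RSD mice, against 20.4, 15.8 and 17.1 FPKM in control mice, with overlap.

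The calcium-stimulated cyclases Adcy1 and Adcy8 differed little between the groups. Their log2 fold changes were 0.04 and 0.01 with 95% intervals of -0.29 to 0.37 and -0.32 to 0.33, and both signs turn under median scaling. The calcium-inhibited cyclase Adcy6 and the beta-gamma-stimulated Adcy7 instead varied among RSD mice. Adcy6 had 10.2, 4.79 and 0.124 FPKM in RSD mice, against 4.83, 6.59 and 4.84 FPKM in control mice. RSD replicate 1 was the highest and RSD replicate 3 the lowest of all, and the log2 fold change of -1.28 (SE 1.41) became 0.38 without RSD replicate 3. Adcy7 had 1.65, 1.58 and 0 FPKM in RSD mice, against 0.574, 1.40 and 1.29 FPKM in control mice. The same RSD mouse was the low one, and without it the log2 fold change of Adcy7 was 0.62 instead of -0.75. Adcy4, which was below the filter, had 0.397 to 0.491 FPKM in RSD mice and 0.425 to 0.842 FPKM in control mice.

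No phosphodiesterase gene passed either threshold, and the family sum was 208, 214 and 218 FPKM in RSD mice, against 246, 203 and 219 FPKM in control mice. The calcium- and calmodulin-activated enzymes Pde1a and Pde1b made up 19.1% and 15.9% of it, and the cAMP-specific Pde4b and Pde4d 13.6% and 13.5%. Pde1a had 41.2, 40.2 and 46.6 FPKM in RSD mice, against 38.9, 43.6 and 37.4 FPKM in control mice. Pde4b, an enzyme that rolipram inhibits, had 30.5, 29.2 and 30.1 FPKM in RSD mice, against 28.0, 29.1 and 30.6 FPKM in control mice. The groups overlapped for both, and the 95% intervals of their log2 fold changes were -0.19 to 0.37 and -0.19 to 0.26. Pde1b (0.08), Pde4d (-0.12), the striatal enzyme Pde10a (0.21) and the cGMP-specific Pde5a (-0.03) also had overlapping groups. Pde4dip (-0.05) overlapped as well. It was taken in by its symbol but encodes myomegalin, a Golgi and centrosome protein that binds a phosphodiesterase and is not itself one.

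The smallest p of the family was that of Pde6d, whose product is known as a carrier of prenylated proteins. Pde6d had 5.85, 7.90 and 7.13 FPKM in RSD mice, against 16.5, 6.87 and 11.2 FPKM in control mice. The groups overlapped through control replicate 2, with a log2 fold change of -0.64 (SE 0.331, adjusted p = 0.597, limma). Pde3b, the cAMP-degrading enzyme of the insulin response, had 2.04, 2.54 and 2.35 FPKM in RSD mice, against 2.61, 3.02 and 2.89 FPKM in control mice. It was the only phosphodiesterase gene whose RSD mice all lay below the control mice, and its log2 fold change was -0.29 (adjusted p = 0.611, limma).

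Pde2a, which cGMP activates to break down cAMP, had the largest fitted change of the members in size. It had 4.58, 0 and 0 FPKM in RSD mice, against 4.92, 1.44 and 1.57 FPKM in control mice. Replicate 1 was the high one in each group, and the log2 fold change of -2.70 (SE 1.61, adjusted p = 0.624, limma) was -0.39 when all transcripts of the locus were summed. Its size rests on the values added to the 0s, as it was -4.86 with 0.01 FPKM added and -0.91 with 1 FPKM added. Without RSD replicate 1 both remaining RSD values are 0, so the call then made at the study threshold has no fold. Pde4a had 1.89, 3.80 and 0.926 FPKM in RSD mice, against 14.4, 2.34 and 0.494 FPKM in control mice. A single control mouse set its sign, as the log2 fold change of -0.47 became 0.73 without control replicate 1. Pde8b, a cAMP-specific enzyme of high affinity, was low in RSD replicate 1 alone, at 2.34 FPKM, and its log2 fold change of -0.47 became 0.02 without that mouse. In the same mouse the lncRNA-listed MERGE.12102.3 of the Pde8b locus was at its highest, 4.04 FPKM. Summed over all transcripts of the locus, the log2 fold change of Pde8b was -0.08. The other cAMP-degrading genes, Pde7a (-0.22), Pde7b (-0.02), Pde8a (0.05) and the dual enzyme Pde11a (-0.06), had overlapping groups and the sign of Pde8a turns under median scaling.

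The catalytic subunits of PKA did not differ beyond the spread between mice. Prkaca had 46.7, 46.9 and 49.0 FPKM in RSD mice, against 58.8, 41.8 and 46.9 FPKM in control mice, with a log2 fold change of -0.03 and a 95% interval of -0.39 to 0.33. Prkacb, the more abundant catalytic gene at 66.3% of the pair, had 39.9, 117 and 121 FPKM in RSD mice, against 122, 99.0 and 116 FPKM in control mice. RSD replicate 1 stood far below the other 5 mice, and the log2 fold change of -0.43 (SE 0.449) became 0.09 without it.

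Type I regulatory subunits, which are largely cytosolic, made up nearly all of the regulatory message, with 58.7% for Prkar1b and 37.3% for Prkar1a. Prkar1b had 224, 227 and 214 FPKM in RSD mice, against 293, 144 and 199 FPKM in control mice. Prkar1a had 130, 137 and 133 FPKM in RSD mice, against 176, 114 and 129 FPKM in control mice. Both were even in RSD mice and scattered in control mice, where replicate 1 was the highest and replicate 2 the lowest, and the RSD values lay inside the control range.

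The type II subunits, which bind most anchors tightly, had lower values in RSD mice without overlap, though neither passed the adjusted threshold. Prkar2a had 3.69, 4.04 and 3.06 FPKM in RSD mice, against 5.17, 4.86 and 4.96 FPKM in control mice. Its log2 fold change of -0.47 (SE 0.148) had the smallest p of the 47 members, 0.0193, with an adjusted p of 0.533 (limma), and it ran from -0.56 to -0.36 as each mouse was left out. When the lncRNA-listed transcript of the locus was added, the log2 fold change of Prkar2a was -0.18. Prkar2b had 10.3, 10.5 and 3.65 FPKM in RSD mice, against 11.8, 11.0 and 12.6 FPKM in control mice. RSD replicate 3 was far below the others, and the log2 fold change of -0.67 (SE 0.423, adjusted p = 0.641, limma) was -0.17 without it. The ratio of summed regulatory to summed catalytic FPKM was 4.25, 2.30 and 2.08 in RSD mice, against 2.69, 1.95 and 2.12 in control mice, and its high value in RSD replicate 1 came with the low Prkacb of that mouse.

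CREB binds the cAMP response element, TGACGTCA, and the shorter form CGTCA, which the full element also contains. RefSeq promoter windows of 250 bases before to 50 bases after each start (GRCm38.p6) were found for 41 of the 49 genes, 81 windows in all. On either strand, the full element lay in 2.47% of the windows of the members, beside 1.79% of all 32851 windows, and the shorter form in 21.0% and 20.8%. Counted by gene, with a gene taken if any of its windows matched, the full element was found for 2.44% of the 41 members and 2.03% of all 27025 genes, and the shorter form for 36.6% and 23.0%. The members had more windows per gene than all genes did, and so more chances to match, which makes these shares by gene unlike. Prkar1a was the only member with the full element, in 2 overlapping windows. The 30 bases around it, on the + strand at chr11:109650882-109650911, are shown with the element in capitals, 38 bases past the start of the window's gene model. Those at the start of Prkar2a, the member with the smallest p, are shown from the + strand at chr9:108692127-108692156 with the shorter form in capitals, 4 bases before the start.
Prkar1a: ggccagagcgaggcgcatTGACGTCAgcag
Prkar2a: cgcggccgcgtgCGTCAcaacccgggcgcc
A match is a run of letters and not a measured binding site, and the genes with the full element and with the shorter form were not compared further.

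**Figure D2:**
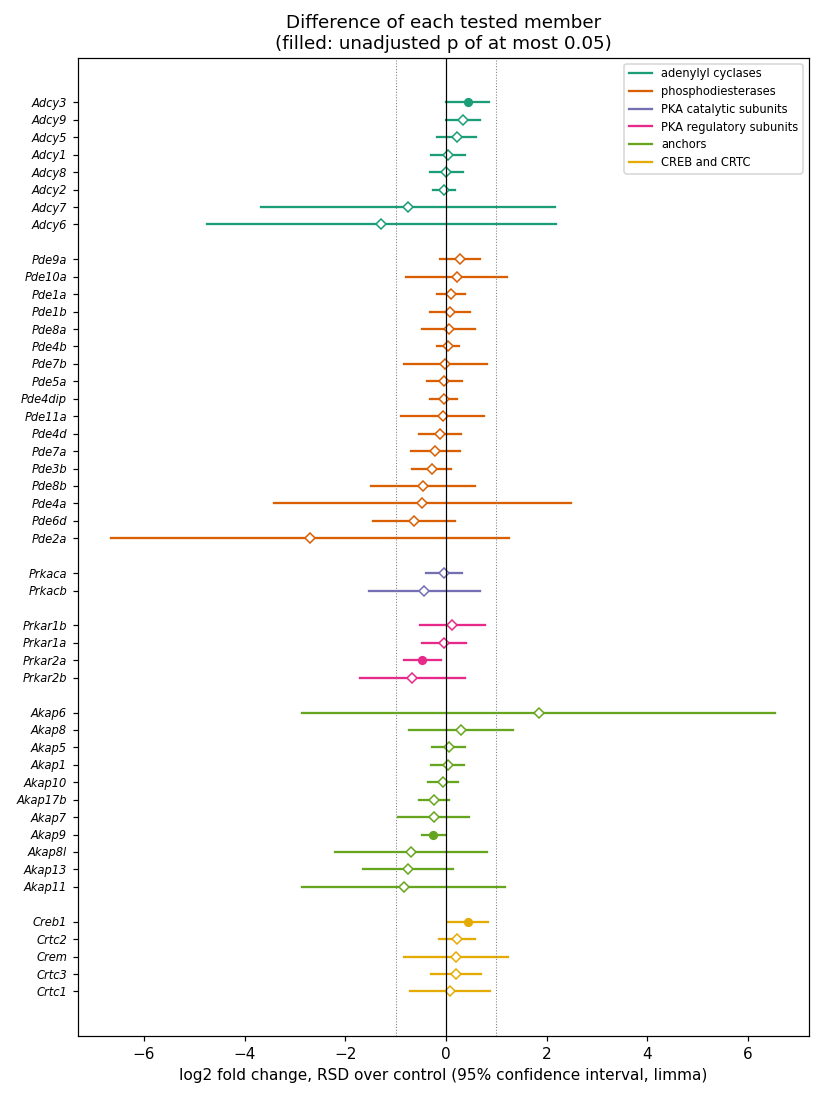
Log2 fold change of RSD over control for the 47 tested genes by family, with 95% confidence intervals from limma. Points are filled for the 4 genes with an unadjusted p of at most 0.05, Adcy3, Prkar2a, Akap9 and Creb1, and dotted lines mark a log2 fold change of 1 in each direction.

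Anchors had a median log2 fold change of -0.23 over the 11 genes tested, 4 positive and 7 negative, and none passed the adjusted threshold. Their sum was 109, 73.5 and 100 FPKM in RSD mice, against 117, 100 and 103 FPKM in control mice. Akap9, a large scaffold of the centrosome and the Golgi, had 14.2, 14.7 and 13.4 FPKM in RSD mice, against 16.6, 17.2 and 16.5 FPKM in control mice. Every RSD mouse lay below every control mouse by more than the spread within either group, with a log2 fold change of -0.25 (SE 0.0953), an unadjusted p of 0.0408 and an adjusted p of 0.553 (limma). Akap17b had 3.78, 3.52 and 3.39 FPKM in RSD mice, against 4.27, 4.06 and 4.29 FPKM in control mice, also without overlap, and its adjusted p was 0.597 (limma). Akap13, an anchor that is also a guanine nucleotide exchange factor, had 1.19, 2.02 and 2.06 FPKM in RSD mice, against 3.48, 1.85 and 3.95 FPKM in control mice. Its log2 fold change of -0.75 (adjusted p = 0.585, limma) was -1.07, past the study threshold, without control replicate 2, the control mouse that lay within the RSD range. The transcript ENSMUST00000207750 was 0.613%, 0% and 0.221% of Akap13 in RSD mice, against 74.2%, 0% and 49.0% in control mice. The high sums of control replicates 1 and 3 thus came with a transcript that was nearly absent from the other mice.

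The postsynaptic anchor Akap5 and the mitochondrial anchor Akap1 showed no difference beyond the spread. Akap5 had 10.6, 8.04 and 9.23 FPKM in RSD mice, against 9.00, 8.66 and 9.06 FPKM in control mice. The 95% intervals of the log2 fold change were -0.28 to 0.38 for Akap5 and -0.29 to 0.36 for Akap1, and the sign of each turns under median scaling. Akap10, an anchor that binds both types of regulatory subunit, had a log2 fold change of -0.06 with an interval of -0.35 to 0.23.

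Akap11, which also binds a glycogen synthase kinase, had the highest mean FPKM of the anchors at 28.9% of the family. It had 36.7, 4.72 and 37.5 FPKM in RSD mice, against 30.5, 35.3 and 35.5 FPKM in control mice. RSD replicate 2 alone was low, and the log2 fold change of -0.84 (SE 0.818) became 0.14 without it. Akap6, an anchor of the nuclear envelope, had 12.2, 10.1 and 1.77 FPKM in RSD mice, against 14.4, 3.41 and 0 FPKM in control mice. Replicate 3 was the lowest in each group, and the log2 fold change of 1.84 (SE 1.91) became -0.21 without control replicate 3. The calcium-channel anchor Akap7 (-0.25) and the nuclear anchor Akap8 (0.30) had overlapping groups. Akap8l had 0.699, 0.967 and 1.11 FPKM in RSD mice, against 0.994, 0.835 and 4.17 FPKM in control mice, and only control replicate 3 stood apart. Akap12, below the filter, had 0.0138 to 0.607 FPKM in RSD mice and 0 to 1.81 FPKM in control mice.

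All 5 genes of the CREB and CRTC group had positive log2 fold changes, with a median of 0.20, but that of Crtc1 turned to -0.0094 under quantile normalization, and none passed the adjusted threshold. The signs of Crem and Crtc1 also turned as single mice were left out, within -0.087 to 0.60 for Crem and -0.092 to 0.39 for Crtc1. Creb1, the transcription factor that PKA phosphorylates, made up 34.0% of the group. It had 12.5, 11.7 and 10.1 FPKM in RSD mice, against 7.43, 9.96 and 7.92 FPKM in control mice. RSD replicate 3 and control replicate 2 nearly met, but the groups did not overlap, with a log2 fold change of 0.44 (SE 0.159), an unadjusted p of 0.0333 and an adjusted p of 0.546 (limma). Leaving out each mouse in turn gave 0.36 to 0.56.

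Crem, a gene that also encodes repressors of cAMP-driven transcription, had 7.96, 5.50 and 4.07 FPKM in RSD mice, against 8.48, 4.22 and 3.22 FPKM in control mice. The spread within each group was larger than the difference between them, and the adjusted p was 0.882 (limma). Crtc1, the coactivator typical of neurons, had 4.26, 4.74 and 2.93 FPKM in RSD mice, against 3.08, 5.61 and 2.84 FPKM in control mice. Crtc2, a coactivator known from the liver, had 6.71, 7.92 and 6.28 FPKM in RSD mice, against 6.50, 6.10 and 5.31 FPKM in control mice. Crtc3 had 3.91, 3.43 and 3.32 FPKM in RSD mice, against 2.60, 3.96 and 2.81 FPKM in control mice. All 3 coactivators had overlapping groups, and their adjusted p-values were 0.942, 0.653 and 0.744 (limma).

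Single mRNA transcripts were compared next, since 18 members had only 1 mRNA transcript and the others up to 10. Of the 148 transcripts 132 were tested, and none passed an adjusted p under 0.05, as 0.163% of all mRNA transcripts did. At the threshold of the study 4 transcripts were called, beside 4.09% of all, 2 with higher values in RSD mice (2.57% of all) and 2 with lower ones (1.51% of all). Of these 4, 3 met the filter on low values only through the 3 mice of the group where they were higher. Such a transcript had to differ to be tested at all, so its call is a description and the counts lend no support to a difference. At an unadjusted p of at most 0.05 there were 5, beside 6.78% of all. The share of each transcript in its gene was tested for 115 transcripts of 30 genes. One transcript, of Pde9a, which is among those 3, passed the adjusted threshold for its share, beside 0.143% of all shares, and the 4 transcripts past the study threshold for their level were also the 4 past it for their share, beside 3.89% of all.

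Pde9a encodes an enzyme that breaks down cGMP and not cAMP, and its gene sum was 4.16, 4.80 and 4.02 FPKM in RSD mice, against 3.98, 3.02 and 3.70 FPKM in control mice. The groups of the sum did not overlap, with a log2 fold change of 0.28 (adjusted p = 0.619, limma). Within that sum, ENSMUST00000127929, on the + strand of chromosome 17 from 31386254 to 31476159, was listed in RSD mice only. It had 1.42, 1.22 and 2.10 FPKM in RSD mice and was listed at 0 in all 3 control mice. Its share of the gene was 34.2%, 25.4% and 52.1% in RSD mice and 0% in each control mouse, with an adjusted p of 0.0376 for the share and of 0.0717 for the level (limma). Since the RSD mice alone brought the transcript past the filter, these p-values are no independent test of the difference. No fold is given because the control values are 0, and the call on the share was lost at a pseudocount of 1 (adjusted p = 0.438), without a filter on low values (0.0562), and without control replicate 2 (0.147) or 3 (0.136). Without any 1 of the RSD mice the transcript falls under the filter and was not tested. ENSMUST00000047168, which spans nearly the same positions, had 0.888, 0.386 and 0.575 FPKM in RSD mice, against 2.79, 1.02 and 2.44 FPKM in control mice. Its share was 21.4%, 8.04% and 14.3% in RSD mice, against 70.1%, 33.9% and 66.0% in control mice, without overlap but with an adjusted p of 0.568 (limma). The authors' software divides reads between such overlapping transcripts, so the level of one is not independent of the level of the other.

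The other calls at the study threshold were in Crtc2 and Pde4d. Crtc2 ENSMUST00000029545 had 0.912, 1.70 and 1.09 FPKM in RSD mice, against 0.186, 0.396 and 0.0647 FPKM in control mice. Every RSD mouse was above every control mouse, and the RSD mice alone met the filter. The fitted log2 fold change was 2.18 (SE 0.521, adjusted p = 0.532, limma), and its share of Crtc2 was 13.6%, 21.5% and 17.4% in RSD mice, against 2.87%, 6.49% and 1.22% in control mice. Pde4d ENSMUST00000153234, from 109260654 to 109951364 on chromosome 13, had 0.334, 0 and 0 FPKM in RSD mice, against 2.97, 0.600 and 1.22 FPKM in control mice. The groups did not overlap, and here the control mice alone met the filter. The adjusted p was 0.630 (limma), no fold is given because 2 RSD values are 0, and the transcript was at most 7.79% of the Pde4d sum in any mouse.

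The makeup of some genes differed between mice of the same group. Creb1 ENSMUST00000087366 was 70.1%, 70.0% and 7.61% of the gene in RSD mice, against 7.06%, 8.80% and 35.0% in control mice. ENSMUST00000190348 of Creb1 was 2.42%, 1.60% and 49.4% in RSD mice, against 52.0%, 44.4% and 13.3% in control mice. RSD replicate 3 thus had the makeup of control replicates 1 and 2, and the shares had adjusted p-values of 0.886 (limma). Prkar2b ENSMUST00000036497 was 99.7%, 99.7% and 15.2% of the gene in RSD mice, against 4.23%, 99.1% and 99.3% in control mice. RSD replicate 3 and control replicate 1 were given the other transcript of that gene instead. RSD replicate 3 was also the mouse with the low sum of Prkar2b, 3.65 FPKM.

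**Figure D3:**
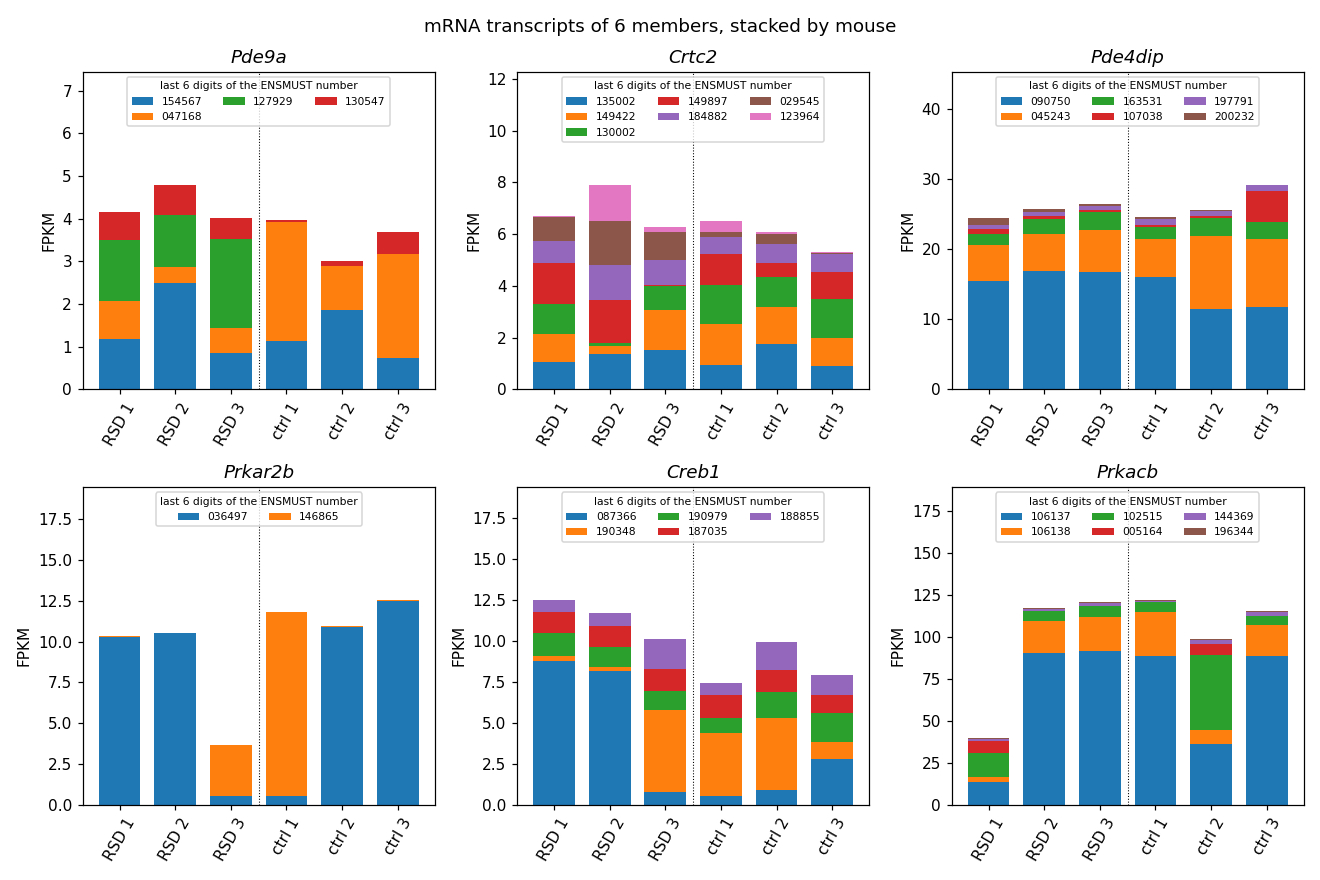
FPKM of each mRNA transcript of Pde9a, Crtc2, Pde4dip, Prkar2b, Creb1 and Prkacb, stacked by mouse, with RSD mice left of the dotted line and control mice (ctrl) right of it. ENSMUST00000127929 of Pde9a appears in the 3 RSD mice only, and the makeup of Prkar2b, Creb1 and Prkacb differs between mice of the same group.

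Of the 48 lncRNA-listed transcripts in member loci 40 were tested, and 0 passed an adjusted p under 0.05, beside 0.102% of all lncRNA-listed transcripts. At the study threshold there were 3, beside 2.43% of all, 2 with higher values in RSD mice (1.07% of all) and 1 with lower ones (1.37% of all). An unadjusted p of at most 0.05 was found for 4, beside 5.28% of all. A transcript listed as lncRNA can overlap the exons of its locus, and its reads are then divided between both tables. MERGE.19119.1 at the Akap8l locus had 3.43, 1.23 and 1.03 FPKM in RSD mice, against 0.461, 0.571 and 0.700 FPKM in control mice. RSD replicate 1 was the highest, the groups did not overlap, and the log2 fold change was 1.38 (adjusted p = 0.927, limma). MERGE.18453.3, at the 5′ part of the Pde10a locus, had 7.88, 9.06 and 10.2 FPKM in RSD mice, against 4.49, 5.13 and 5.72 FPKM in control mice. It was named after its values were seen, for the smallest p of the 40 (0.00485). Its log2 fold change was 0.81 (SE 0.192, adjusted p = 0.717, limma), and every RSD mouse was above every control mouse.

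At the Pde4dip locus the differences followed 2 control mice. NONMMUT044350.2 had 8.83, 9.43 and 11.4 FPKM in RSD mice, against 9.07, 2.12 and 3.18 FPKM in control mice. MERGE.28856.7 had 0.822, 0.909 and 0.835 FPKM in RSD mice, against 0.885, 4.34 and 4.63 FPKM in control mice. Control replicate 1 lay with the RSD mice in both, and without it MERGE.28856.7 had a log2 fold change of -2.26 and an adjusted p of 0.0138 (limma), against -1.52 and 0.927 with it. The mRNA transcripts of Pde4dip split the mice in the same way, since ENSMUST00000090750 was 63.3%, 65.6% and 63.0% of the gene in RSD mice, against 65.2%, 44.8% and 40.4% in control mice.

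The lncRNA-listed transcripts were then added to the mRNA sum of each locus. The locus sum of Adcy9 was 63.6, 61.8 and 70.5 FPKM in RSD mice, against 34.6, 46.5 and 53.0 FPKM in control mice. As in the mRNA sum, the RSD mice were all above the control mice, with a log2 fold change of 0.57 (SE 0.176, unadjusted p = 0.0183, adjusted p = 0.484, limma). Much of that came from NONMMUT025247.2 at the 3′ end of Adcy9, which had 29.1, 26.8 and 33.2 FPKM in RSD mice, against 0.0877, 21.5 and 25.2 FPKM in control mice. Only control replicate 1 was near 0 for this transcript, whose log2 fold change was 2.67 (SE 1.85, adjusted p = 0.937, limma). The same mouse had the lowest locus sum of Adcy9, 34.6 FPKM. At the Akap6 locus the sum was 54.7, 47.2 and 41.2 FPKM in RSD mice, against 45.0, 35.3 and 37.2 FPKM in control mice, with none of the near-absent values of the mRNA sum and a log2 fold change of 0.28 (adjusted p = 0.588, limma). The Akap11 locus kept its low RSD replicate 2, with 74.7, 36.5 and 75.1 FPKM in RSD mice, against 61.8, 70.2 and 71.7 FPKM in control mice.

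**Figure D4:**
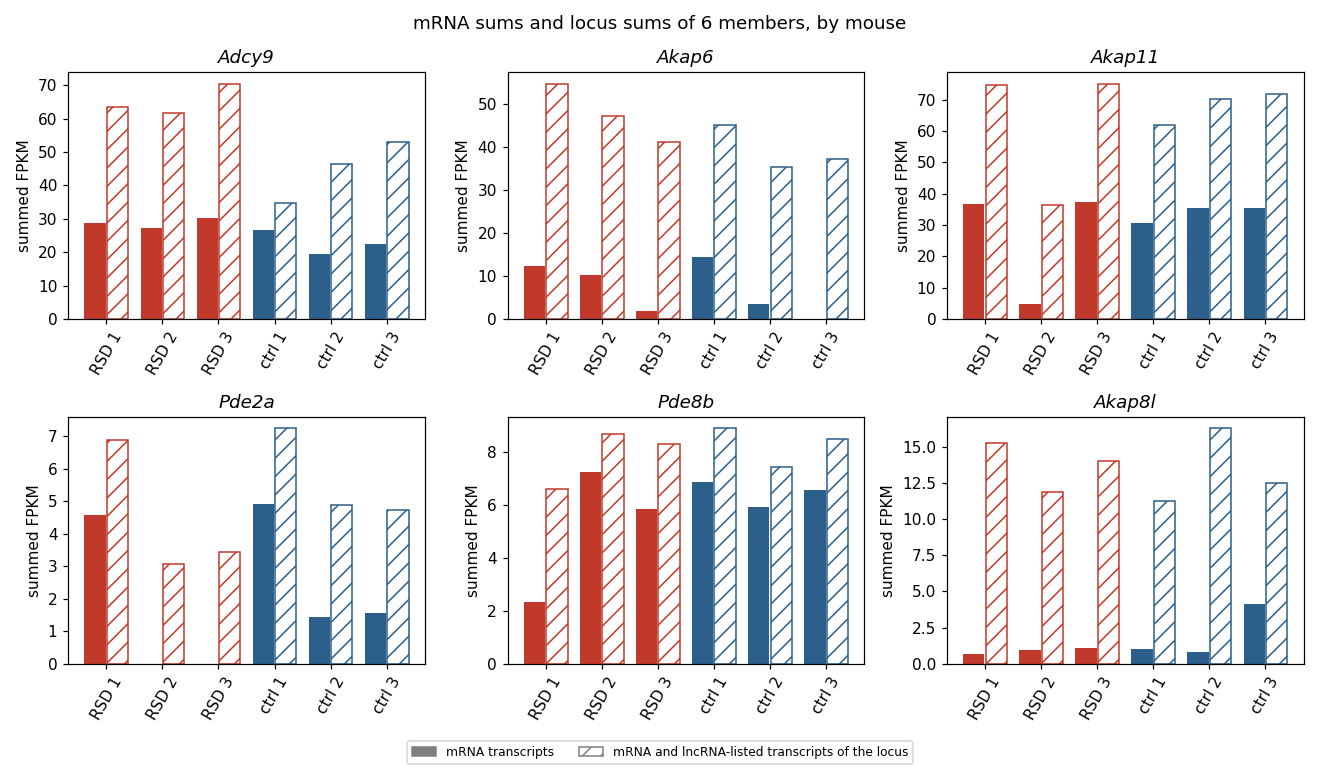
Summed FPKM of the mRNA transcripts (filled bars) and of all transcripts of the locus (hatched bars) of 6 members in each RSD mouse (left) and each control (ctrl) mouse (right). The locus sum of Adcy9 is 61.8 to 70.5 in RSD mice and 34.6 to 53.0 in control mice, with the lowest value in control replicate 1. Akap6 loses its near-absent values once all transcripts are summed.

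The rest of the pathway was read from 8 lists of known partners, and no gene of these lists passed an adjusted p under 0.05. Of the 7 tested genes listed as effectors of cAMP other than PKA, 6 had positive log2 fold changes, with a median of 0.18. The list took in the pacemaker channel family as a whole, with log2 fold changes of 0.50 for Hcn2 and 0.49 for Hcn3. Hcn2 had 27.0, 26.2 and 23.5 FPKM in RSD mice, against 22.4, 15.0 and 17.7 FPKM in control mice, without overlap and with an adjusted p of 0.546 (limma). The 8 PKA inhibitors and phosphoprotein targets had a median of 0.12, and the smallest p among them was that of Ppp1r1b, the DARPP-32 gene (0.44), with Pkig (0.56) and Ppp1r1a (-0.22) next.

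Among the 13 partners of CREB and kinases of CRTC the median log2 fold change was -0.03, with 1 gene higher and 1 lower at the study threshold, beside 1.85% and 0.57% of all genes. Sik1, a kinase that keeps CRTC out of the nucleus and is itself a target of CREB, had 3.99, 4.88 and 3.20 FPKM in RSD mice, against 2.09, 1.61 and 1.25 FPKM in control mice. All RSD mice were above all control mice, with a log2 fold change of 1.24 (SE 0.253, adjusted p = 0.451, limma). Camk4, a calcium-dependent kinase of CREB, had 0.897, 2.03 and 0.247 FPKM in RSD mice, against 19.3, 4.52 and 6.54 FPKM in control mice. The groups did not overlap and the log2 fold change was -3.22 (SE 0.819, adjusted p = 0.531, limma). The CRTC kinase Sik3 had a log2 fold change of 0.35.

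The list that stood farthest from the median of all genes was that of genes known to be induced through cAMP, most of which other signals also induce. Its 19 tested genes had a median log2 fold change of 1.08, 17 of them positive. At the study threshold 9 had higher and 0 lower values in RSD mice, beside 1.85% and 0.57% of all genes. The list was chosen with earlier results of these data known, so its place and these counts are only a description. Fos had 10.6, 16.5 and 12.0 FPKM in RSD mice, against 4.38, 4.04 and 3.28 FPKM in control mice, with an adjusted p of 0.142 (limma), and Btg2 (1.08) and Fosb (1.46) followed.

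Upstream of the cyclases the values were mixed. The 12 stimulatory G proteins and receptors had a median log2 fold change of 0.13, and the smallest p were those of Drd5 (0.61), Htr6 (1.18) and Crhr1 (0.35), the receptor of corticotropin-releasing hormone. Of the 5 inhibitory G proteins, Gnaz had 17.9, 10.2 and 10.2 FPKM in RSD mice, against 4.41, 0.202 and 1.87 FPKM in control mice, and Gnao1 had 48.3, 40.0 and 26.2 FPKM in RSD mice, against 58.5, 55.8 and 67.5 FPKM in control mice. Neither overlapped between groups, with log2 fold changes of 3.16 and -0.70 and adjusted p-values of 0.533 and 0.544 (limma), while Gnai1 stood at -0.16. The 8 genes of cGMP synthesis and response had a median of -0.03, led by Gucy1a3 (-0.21), Prkg2 (-0.19) and Gucy1a2 (1.39). Gucy1a2 had 16.1, 15.6 and 17.0 FPKM in RSD mice, against 0.837, 16.2 and 15.7 FPKM in control mice. Only control replicate 1 was low, and the log2 fold change of Gucy1a2 fell as low as 0.02 as each mouse was left out. Of 13 anchors without an Akap symbol, Map2, which binds type II regulatory subunits in dendrites, had 127, 118 and 119 FPKM in RSD mice, against 73.4, 84.8 and 90.6 FPKM in control mice. Its log2 fold change was 0.55 (SE 0.117, adjusted p = 0.471, limma) without overlap, and Ezr (0.26) and Nbea (0.19) came next, with a median of 0.12 over the 13. The value of Nbea turned to -0.39 when all transcripts of the locus were summed.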

How the data were processed

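The authors aligned reads of ribosomal-RNA-depleted, strand-preserving libraries, assembled transcripts and deposited FPKM values per transcript and mouse, divided among isoforms by the Cufflinks suite. The deposited tables also hold the authors' own fold changes and p-values, which were not used. Bowtie 0.12.2 and mm9 are named in the submitters' processing notes, but 49 of 49 members lie over their GRCm38 genes, so positions are given as the files list them. The table that joins both RNA classes was not used.

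FPKM was summed by symbol. Values were log2(FPKM + 0.1), and features with at least 0.5 FPKM in at least 3 mice were tested with limma 3.58.1 in R 4.3.3, with a trend, separately for genes, mRNA transcripts, shares and lncRNA-listed transcripts. P-values were two-sided, adjusted (Benjamini-Hochberg) over all features of each table, and measure only the spread between the mice given. FPKM allows no count model. Fold changes on this scale understate the change of low genes. The procedure was run on simulated gene values, drawn normally around the mean and spread of each gene, without isoforms or failed estimates. Only the mean estimate of known changes was checked there.

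Members and lists were chosen with earlier results of these data known. Mouse values are given for genes past a threshold, for the smallest p and highest mean of each family, for the CREB and CRTC group, and for up to 8 transcripts of each kind past a threshold. Up to 3 genes of each list with the smallest p are named (1 such gene is not reported here), and other members were named after their values were seen. Alternatives were pseudocounts of 0.01 and 1, no filter or one of 1 FPKM, a fit without the trend, scaling to the median, quantile normalization, a block for the replicate number, leaving out each mouse, and sums over all transcripts of a locus.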

Additional observations from a re-analysis of the deposited data

How the results depend on the processing

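The count of member genes past the study threshold, 0, was 1 when the replicate number was a block (Pde2a) and ran from 0 to 1 as each mouse was left out, with Pde2a called without RSD replicate 1, where its RSD values are both 0 and the size is set by the pseudocount, and Akap13 without control replicate 2. No gene passed an adjusted p under 0.05 in any of these fits. Replicate numbers were not taken to pair the mice, since the deviations of same-numbered mice correlated at 0.13, -0.09 and 0.10. RSD replicates 2 and 3 did not correlate best with their own number. The 4 mRNA transcripts past the study threshold became 2 with 1 FPKM as the pseudocount, 2 with a filter of 1 FPKM, and 1 (without RSD replicate 2) to 7 (without RSD replicate 3) with a mouse left out. Their count at an adjusted p under 0.05, 0, was 1 without the trend and 0 to 1 with a mouse left out, the 1 being ENSMUST00000127929 of Pde9a. For isoform shares the 4 past the study threshold became 2 with a filter of 1 FPKM and 2 to 7 with a mouse left out (2 without RSD replicate 1 or 2, 7 without RSD replicate 3). The 1 share past the adjusted threshold, of Pde9a, became 0 with 1 FPKM as the pseudocount, 0 without a filter, 0 with the replicate block, and 0 to 1 with a mouse left out. It was kept without control replicate 1. For the lncRNA-listed transcripts the counts of 3 and 0 ran from 0 (without control replicate 2) to 5 (without control replicate 1) and from 0 to 1. The 1 was MERGE.28856.7 without control replicate 1 and NONMMUT014196.2, at Akap6, without control replicate 3, whose log2 fold change was then 3.25 with an adjusted p of 0.0428 (limma), against 2.02 and 0.932 with all mice. Where no cause is shown by fewer mice or features, the cause was not tested.

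The sign of some log2 fold changes that passed no threshold turned. Under median scaling, which moved the median of all genes to -0.05, they were -0.037 for Adcy1, -0.071 for Adcy8, -0.050 for Akap1, -0.029 for Akap5, -0.044 for Pde4b and -0.024 for Pde8a. Under quantile normalization (median -0.06) they were -0.037 for Adcy1, -0.098 for Adcy8, -0.032 for Akap1, -0.015 for Akap5, -0.0094 for Crtc1, -0.048 for Pde4b, -0.086 for Pde8a and -0.063 for Prkar1b. Summed over all transcripts of the locus they were -0.15 for Adcy8, 0.049 for Akap8l, -0.055 for Pde10a, 0.17 for Pde4dip and -0.39 for Nbea. With each mouse left out in turn the sign turned within ranges of -0.024 to 0.12 for Adcy1, -2.38 to 0.38 for Adcy6, -1.45 to 0.62 for Adcy7, -0.045 to 0.075 for Adcy8, -0.037 to 0.11 for Akap1, -0.13 to 0.011 for Akap10, -1.34 to 0.14 for Akap11, -0.047 to 0.15 for Akap5, -0.21 to 3.38 for Akap6, -0.47 to 0.043 for Akap7, -0.087 to 0.60 for Crem, -0.092 to 0.39 for Crtc1, -0.13 to 0.50 for Pde10a, -0.31 to 0.13 for Pde11a, -0.040 to 0.24 for Pde1b, -1.57 to 0.73 for Pde4a, -0.24 to 0.042 for Pde4d, -0.096 to 0.027 for Pde4dip, -0.072 to 0.0064 for Pde5a, -0.27 to 0.25 for Pde7b, -0.11 to 0.17 for Pde8a, -0.78 to 0.015 for Pde8b, -0.14 to 0.10 for Prkaca, -0.71 to 0.091 for Prkacb, -0.18 to 0.14 for Prkar1a, -0.12 to 0.39 for Prkar1b and -0.26 to 0.027 for Gnai1. In all, 28 of the 47 members turned sign in at least 1 of the alternatives, and no gene sum passed an adjusted p under 0.05 in any.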
